A study of Mus musculus with 4 samples.

Results

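The 9 genes described here encode proteins that carry a T cell receptor signal from the membrane into the cell, or tune it at the surface. They are the kinases Lck, Fyn and Zap70, the phosphatase Ptprc (CD45), the adaptors Lat and Lcp2 (SLP-76), and the surface proteins Cd2, Cd5 and Thy1. They were taken by gene name from 55487 genes, and each name matched 1 gene. RNA had been sequenced in 4 libraries labelled as regulatory T cells (Treg) from mouse skin, 2 without and 2 with narrow-band ultraviolet B (UVB). As the design text describes it, without setting the groups apart in this, the mice had psoriasis-like dermatitis, brought on by imiquimod, which activates the receptor TLR7 (60 mg per day of a 5% cream on shaved skin). The irradiated animals also received 3 UVB exposures on alternate days, and the non-irradiated ones received none. The libraries carry the numbers 1 and 2 within each group. The sources used here do not give genotype, strain, age, sex, the sort of the cells, or whether a library came from 1 mouse or several. The p-values below therefore set a difference only against the spread between these libraries, and that spread may be technical.

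When a T cell receptor meets its ligand, Lck phosphorylates motifs in the CD3 chains, Zap70 docks on them and is activated, and Zap70 then phosphorylates Lat and Lcp2. These adaptors gather phospholipase C-gamma, Vav1 and Grb2, which start calcium, actin and Ras signals. Fyn is a close relative of Lck. CD45 removes the inhibitory phosphate from Lck and Fyn, CD5 dampens the signal, CD2 binds CD48 on other cells and strengthens contact, and Thy1 is a lipid-anchored protein abundant on mouse T cells. The same kinases and adaptors serve the alpha-beta receptor of Treg cells and the gamma-delta receptor of innate-like T cells of the skin.

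The label was checked against markers. Foxp3, which defines Treg cells, was listed at 0 in the first non-UVB library and reached 3.49 TPM in the first UVB library (TPM is a level scaled to gene length and library total). In the pair numbered 2 its level was 19.4 TPM without UVB and 19.3 TPM with it. The whole list of 6 Treg genes, in which Ctla4 and Tnfrsf18 had the highest levels, summed to 1986 and 1826 TPM for number 1 (non-UVB, then UVB) and to 4665 and 3760 TPM for number 2. By mean 5 of the 6 were higher in number 2, against 53.4% of all genes tested, though Il2ra overlapped between numbers. Icos was lower in number 2 within each group, at 1221 and 784 TPM against 826 and 620 TPM. The sum over 7 gamma-delta T cell genes was 9552 (non-UVB) and 9199 TPM (UVB) for number 1, but 176 and 246 TPM for number 2. Of these 7 genes, all were lower in both libraries numbered 2 than in both numbered 1, against 18.5% of all genes tested. Markers of keratinocytes (8 genes) summed to 370 and 684 TPM against 3215 and 3496 TPM, again number 1 first. A neutrophil list (6 genes, with S100a8 and S100a9, which keratinocytes also express, at the highest levels, and Ly6g and Retnlg at 0 in all libraries) summed to 447 and 363 TPM against 3255 and 2203 TPM. Macrophage and dendritic cell markers (12 genes) summed to 9168 TPM (non-UVB) and 14607 TPM (UVB) for number 1, and to 3881 and 9470 TPM for number 2. The share of haemoglobin transcripts was 11.7% in the first non-UVB library, the one with near-absent Cd2 below, and 0.153% to 0.441% elsewhere. The B cell, NK cell, mast cell, fibroblast and endothelial lists summed to at most 82.7 TPM in any library. They had 1 gene each of 5 or 6 at 1 TPM or more in at least 2 libraries, and Ms4a1, Ncr1, Col1a1 and Cdh5 were listed at 0 in all 4. In such bulk samples fewer cells of a type and less RNA per cell cannot be told apart. The deposited values rested on 3.41 and 4.2 gigabases of reads for number 1 (non-UVB, then UVB) and 2.47 and 2.38 gigabases for number 2. The share of mitochondrial transcripts was 0.857% and 0.487% for number 1, against 5.73% and 6.42% for number 2, in the same order.

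All 9 genes were above 1 TPM in every library and were tested in both comparisons. By the mean of log2(TPM + 1) over the 4 libraries, shown as a level, the order was Lat at 1001 TPM, Cd2 at 192, Cd5 at 121, Lcp2 at 117, Ptprc at 110, Lck at 96.3, Zap70 at 69.7, Thy1 at 61.8 and Fyn at 42.1. Lat was above the 7 genes after Cd2 in every library, at 794 TPM or more against 221 TPM or less. The ranges of each of the 8 neighbouring pairs in this order overlapped, so the order of neighbours is not fixed by these libraries. Some genes further apart did not overlap, as with Lcp2, at 105 TPM or more, above Thy1 and Fyn, at 92.6 TPM or less. Lcp2 had the smallest range over the 4 libraries, 0.43 log2, and Cd2 the largest, 8.95 log2.

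**Figure D1:**
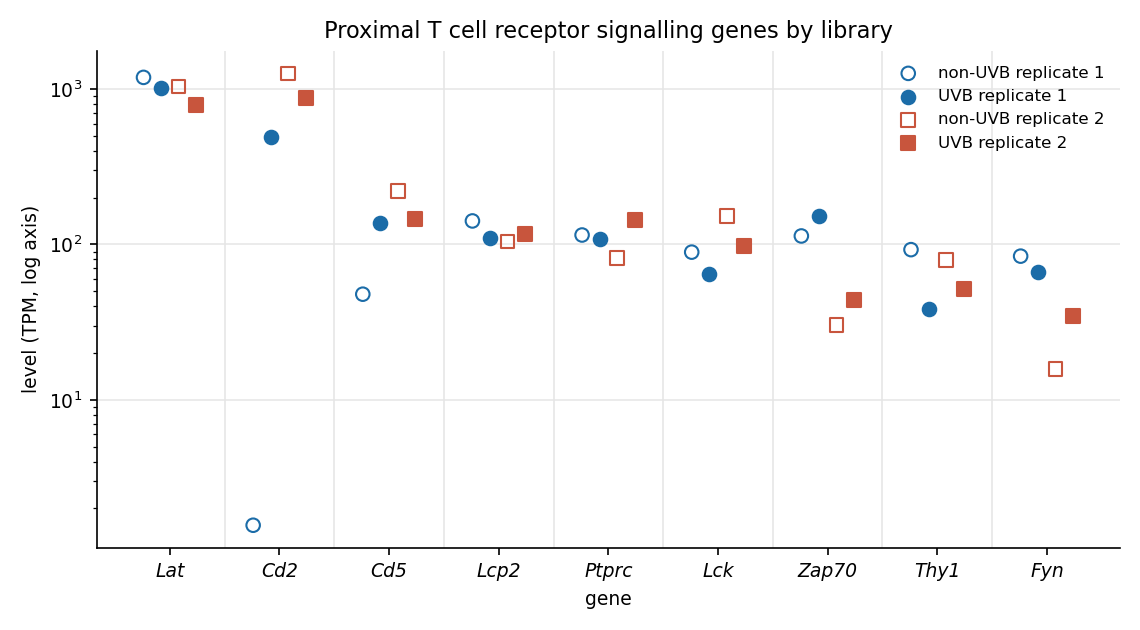
Level of each gene in TPM (log axis) in the 4 libraries, ordered by mean level, with open symbols for non-UVB, filled symbols for UVB, circles for number 1 and squares for number 2. Zap70 and Fyn sit lower in both squares than in both circles, Lck, Cd5 and Cd2 sit higher in both squares, and Cd2 stands at 1.56 TPM in non-UVB replicate 1.

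Among the kinases, Lck (ENSMUSG00000000409, chromosome 4, 129548344 to 129573641, minus strand, GRCm38) had 89.2 and 64.3 TPM for number 1 (non-UVB, then UVB) and 153 and 98.1 TPM for number 2. Within each number the UVB library was the lower one, at 0.721 and 0.643 times the non-UVB level, while the 2 groups overlapped. The difference of UVB from non-UVB was -0.55 ± 0.60 log2 (SE, n = 2 per group), and limma gave an adjusted p of 0.9998 for it. It was -1.15 after median scaling. With 1 library left out it was lowest at -0.93 (non-UVB replicate 1) and highest at -0.17 (non-UVB replicate 2), while leaving out UVB replicate 1 gave -0.25 and UVB replicate 2 -0.85. By number, both libraries numbered 2 were above both numbered 1, with a difference of 0.68 ± 0.49 log2 and a limma adjusted p of 0.716.

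Fyn (ENSMUSG00000019843, chromosome 10, 39368855 to 39565381, plus strand) ran the other way by number. It had 84.1 and 66.3 TPM in the libraries numbered 1 and 15.8 and 34.7 TPM in those numbered 2 (non-UVB before UVB), so that both of the latter lay below both of the former. The mean was 2.97 times as high in number 1, and the difference of number 2 from number 1 was -1.63 ± 0.70 log2 (limma adjusted p = 0.4999). The deposited mean read depth per base of Fyn was low, at 8.61 and 9.99 in number 1 and 1.51 and 3.11 in number 2. That of Lck was 87.1 to 159. With UVB, Fyn was at 0.789 times the non-UVB level in number 1 and at 2.20 times in number 2. Its UVB difference of 0.38 ± 1.10 log2 had a limma adjusted p of 0.9998 and turned to -0.23 after median scaling, to -0.08 with UVB replicate 1 left out and to -0.79 with non-UVB replicate 2 left out.

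Zap70 (ENSMUSG00000026117, chromosome 1, 36761798 to 36782818, plus strand), the kinase that binds phosphorylated CD3 chains, had 113 and 154 TPM in the libraries numbered 1 and 30.4 and 44.0 TPM in those numbered 2. Both libraries numbered 2 were again the low ones. The level in number 1 was 3.59 times that in number 2, a difference of -1.82 ± 0.52 log2 for number 2 (95% interval -3.28 to -0.36). Zap70 was the 1 gene of the 9 with an unadjusted p under 0.05 in either comparison by limma, and its adjusted p over all genes was 0.292. Its unadjusted p was above 0.05 with the UVB group as a second term, after median scaling, and when non-UVB replicate 1, UVB replicate 1 or non-UVB replicate 2 was left out. Within each number the UVB library was the higher one, at 1.35 and 1.45 times the non-UVB level. The spread between numbers was larger than this. The UVB difference was 0.48 ± 1.07 log2 with a limma adjusted p of 0.9998, and it turned to -0.13 after median scaling, to -0.41 with UVB replicate 1 left out and to -0.46 with non-UVB replicate 2 left out.

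Because Lck and Fyn are relatives that differed by number in opposite directions, their ratio within a library was also taken, a measure chosen after the values were seen. Lck per Fyn was 1.06 and 0.970 in non-UVB and UVB replicate 1 and 9.66 and 2.82 in replicate 2. This ratio rests on the low read depth of Fyn given above. Lck per Zap70 was 0.787 and 0.419 against 5.02 and 2.23. Cd5 per Zap70 was 0.422 and 0.899 against 7.26 and 3.30. Such ratios do not depend on the total of a library. In each pair 1 gene was already higher and the other lower in both libraries numbered 2, so these ratios had to separate the numbers and are given as a description, with no test.

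Of the genes that separated by number, Lck, Cd5 and Cd2 were higher in number 2 and Zap70 and Fyn lower. Cd2 had no listed start. The stretches before the start sites of Lck, Cd5, Zap70 and Fyn are shown as a description. They are the 120 bases before RefSeq start sites (GRCm38.p6), 5′ to 3′ on the gene's strand. Matches to AGGAAG or its reverse complement CTTCCT, letters found in some sites of ETS-family factors, are in capitals. Other forms of such sites were not searched, and a link of these letters to the levels was not tested. Lck has a distal and a proximal start, and the deposited values are per gene, so these cannot be separated here. For Zap70, which has 3 listed starts, the most upstream is given.
Lck distal, chr4:129573642-129573761, minus strand: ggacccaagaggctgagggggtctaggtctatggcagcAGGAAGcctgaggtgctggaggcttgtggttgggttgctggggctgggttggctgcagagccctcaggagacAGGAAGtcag
Lck proximal, chr4:129558373-129558492, minus strand: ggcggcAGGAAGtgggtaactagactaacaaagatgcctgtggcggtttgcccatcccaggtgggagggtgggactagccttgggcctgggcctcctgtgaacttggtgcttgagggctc
Cd5, chr19:10738975-10739094, minus strand: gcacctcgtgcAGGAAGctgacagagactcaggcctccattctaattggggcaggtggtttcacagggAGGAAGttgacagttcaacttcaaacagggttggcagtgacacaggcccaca
Zap70, chr1:36761678-36761797, plus strand: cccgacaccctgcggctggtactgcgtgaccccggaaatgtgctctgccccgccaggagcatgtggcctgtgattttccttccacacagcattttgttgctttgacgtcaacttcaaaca
Fyn, chr10:39369679-39369798, plus strand: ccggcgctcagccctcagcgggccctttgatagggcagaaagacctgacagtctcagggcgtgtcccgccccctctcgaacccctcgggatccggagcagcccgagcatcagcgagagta
The distal Lck stretch and that of Cd5 held 2 matches each, the proximal Lck stretch held 1, and those shown for Zap70 and Fyn held none. The letters occurred in 16.3% of 32851 such stretches of all genes, and in 6 of the 11 listed for 7 of the 9 genes. The second Zap70 start held 1 match and the third none. Of the genes that did not separate by number, Lat held 1, the starts of Ptprc held 2 and none, and Lcp2 held none. Cd2 and Thy1 had no entry.

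Ptprc (ENSMUSG00000026395, chromosome 1, 138062861 to 138175708, minus strand), which encodes the CD45 phosphatase found on nearly all leukocytes, had 115 and 108 TPM in the libraries numbered 1 and 81.6 and 143 TPM in those numbered 2 (non-UVB before UVB). The groups overlapped in both comparisons. UVB differed from non-UVB by 0.36 ± 0.52 log2 (limma adjusted p = 0.9998), which turned to -0.25 after median scaling. The libraries of the 2 numbers had means of 112 ± 4.90 and 112 ± 43.3 TPM (SD, n = 2 each), so the spread was greater in number 2. Which CD45 isoforms were present cannot be read from values per gene.

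Of the adaptors, Lat (ENSMUSG00000030742, chromosome 7, 126363824 to 126369570, minus strand), the membrane scaffold that Zap70 phosphorylates, had 1190 and 1021 TPM for number 1 (non-UVB, then UVB) and 1039 and 794 TPM for number 2. It ranked 86, 119, 136 and 183 among all genes for non-UVB 1 and UVB 1, then non-UVB 2 and UVB 2. Both UVB libraries lay below both non-UVB libraries, at 0.857 and 0.764 times the level of the same number. The mean was 1115 ± 107 TPM without and 907 ± 160 TPM with UVB (SD, n = 2 per group), a difference of -0.30 ± 0.31 log2 with a 95% interval from -1.18 to 0.57 (limma adjusted p = 0.9998). Lat was thus the gene with the smallest error of the 9, and its difference did not exceed that error. It was -0.91 ± 0.42 log2 after median scaling (limma adjusted p = 0.660), and from -0.49 with UVB replicate 1 left out to -0.12 with UVB replicate 2 left out.

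Lcp2 (ENSMUSG00000002699, chromosome 11, 34046920 to 34092295, plus strand), the cytosolic adaptor that Lat recruits through Grap2, had 142 and 110 TPM in the libraries numbered 1 and 105 and 116 TPM in those numbered 2. The UVB library was the lower one in number 1 and the higher one in number 2. Neither comparison separated the libraries, with differences of -0.11 ± 0.48 log2 for UVB (limma adjusted p = 0.9998) and -0.18 ± 0.40 log2 for number 2 (limma adjusted p = 0.957). The former became 0.11 when non-UVB replicate 1 was left out, and the latter 0.01 then and 0.07 after median scaling. An annotated gene on the opposite strand shares 282 exonic bases with Lcp2 and was listed at 0 in all 4 libraries.

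Of the surface proteins, Cd2 (ENSMUSG00000027863, chromosome 3, 101275899 to 101287939, minus strand) had 1.56 and 490 TPM for number 1 (non-UVB, then UVB), and 1264 and 877 TPM for number 2. This single low library sets the size of both differences. Within number 2 the UVB library was at 0.694 times the non-UVB level, and the UVB difference of 3.53 ± 3.24 log2 (limma adjusted p = 0.979) was -0.95 when the low library was left out and 8.005 when non-UVB replicate 2 was. Both libraries numbered 2 were above both numbered 1, with a difference of 4.89 ± 2.77 log2 (limma adjusted p = 0.623) that was 1.10 when the low library (non-UVB replicate 1) was left out and 8.69 when UVB replicate 1 was. The mean read depth per base of Cd2 was 2.20 in the low library, against 880 to 1436 elsewhere.

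Cd2 was not alone in being near-absent from 1 library. Of 1073 genes at 100 TPM or more in the other 3 libraries, 11 (1.03%) were at least 100 times below the lowest of them in non-UVB replicate 1. The same held for 22 of 1092 genes (2.01%) in non-UVB replicate 2, for 2 of 1000 (0.2%) in UVB replicate 1 and for 0 of 1019 in UVB replicate 2. This count was chosen after the value of Cd2 was seen. The tested genes closest to Cd2 in log2(TPM + 1) over the 4 libraries were Pttg1, Mlf2 and Sprr2d. Pttg1, which encodes securin, was listed at 0 in non-UVB replicate 1 and had 330 TPM in UVB replicate 1 and 659 and 234 TPM in the pair numbered 2 (non-UVB, then UVB). Mlf2 had 0.205 TPM against 328, 400 and 177 TPM, and Sprr2d, a protein of the cornified envelope of keratinocytes, had 0.160 TPM against 61.0, 587 and 419 TPM in the same order.

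Cd5 (ENSMUSG00000024669, chromosome 19, 10717116 to 10739002, minus strand), an inhibitory scavenger-type receptor set by the strength of receptor signals in developing T cells, had 47.8 and 138 TPM in the libraries numbered 1 and 221 and 145 TPM in those numbered 2. Both libraries numbered 2 were above both numbered 1, although UVB replicate 1 lay only just below UVB replicate 2. The difference was 1.13 ± 0.69 log2 (limma adjusted p = 0.656) and 0.37 log2 without non-UVB replicate 1. With UVB, Cd5 was at 2.89 times the non-UVB level in number 1 and at 0.658 times in number 2. The UVB difference of 0.45 ± 0.90 log2 (limma adjusted p = 0.9998) was -0.15 after median scaling, and -0.64 with non-UVB replicate 1 left out.

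Thy1 (ENSMUSG00000032011, chromosome 9, 44043384 to 44048579, plus strand) had 92.6 and 79.4 TPM without UVB (number 1, then 2), against 38.6 and 51.4 TPM with it. Both UVB libraries were below both non-UVB libraries, at 0.417 and 0.646 times the level of the same number. The mean was 86.0 ± 9.30 TPM without and 45.0 ± 9.03 TPM with UVB (SD, n = 2 per group), so the means lay further apart than the spread within either group. The difference was -0.93 ± 0.58 log2 (95% interval -2.57 to 0.71). It had the smallest p-value of the 9 genes in this comparison, and with a limma adjusted p of 0.852 it did not pass the test. Across all alternatives computed, from another pseudocount to leaving out each library, the difference of Thy1 stayed between -1.54 and -0.73 log2, with an adjusted p between 0.657 and 0.9999. By number Thy1 did not separate, at 0.09 ± 0.69 log2.

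Set side by side for UVB, 5 of the 9 genes had a higher mean of log2(TPM + 1) with UVB, against 61.0% of all genes tested, and 4 a lower one, against 39.0%. The UVB libraries had 10317 and 10227 genes at 1 TPM or more (number 1, then 2), against 7825 and 8033 without UVB. The part of this in the UVB differences, here and in the lists below, was not tested. At an adjusted p under 0.05 limma called 0 of 9, and 0 of 10286 genes in all (0% of genes tested). At an unadjusted p under 0.05 the counts were 0 of 9 genes against 11.3% of all genes. Lat and Thy1 were lower in both UVB libraries than in both non-UVB libraries, against 9.71% of all genes, and 0 of 9 were higher in both, against 23.2%. Lat, Lck and Thy1 were lower with UVB within both numbers, against 17.7% of all genes, and Zap70 alone of the 9 was higher within both, against 34.0% of all genes. The median difference of the 9 was 0.36 log2, beside 0.26 log2 for all genes tested. That of the 9 was -0.21 log2 with non-UVB replicate 1 left out, -0.08 with UVB replicate 1 left out and -0.32 with non-UVB replicate 2 left out. Median scaling moved the median of all genes to -0.35 log2 and that of the 9 to -0.25, and after quantile normalization these were -0.19 and 0.11.

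Set side by side for the numbers, which use the same 4 libraries, 3 genes (Lck, Cd2, Cd5) were higher in both libraries numbered 2, against 22.5% of all genes, and 2 genes (Zap70, Fyn) were lower in both, against 18.5%. By mean 4 were higher in number 2, against 53.4% of all genes, and 5 lower, against 46.6%. Lck, Cd2 and Cd5 were higher in number 2 within both groups, against 32.6% of all genes, and Lat, Zap70 and Fyn were lower within both, against 24.4%. Lat overlapped between numbers, at -0.28 ± 0.25 log2. At an adjusted p under 0.05 limma called 0 of 9 and 0 of 10286 genes (0%), and at an unadjusted p under 0.05 it called 1 of 9 against 12.5% of all genes. The 5 genes that separated kept their direction under each of 13 alternatives, most of which could not turn it. Leaving out 1 library or changing the pseudocount cannot reverse libraries that do not overlap. The filter, the spread model and the second term leave the difference as it is. The unit, both scalings and the genes behind the TPM total could have turned it. Median scaling moved the median of all genes from 0.10 to 0.35 log2. The number difference stood beside the gamma-delta, keratinocyte, Foxp3 and mitochondrial values and the depths given above. Their part in it was not tested.

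**Figure D2:**
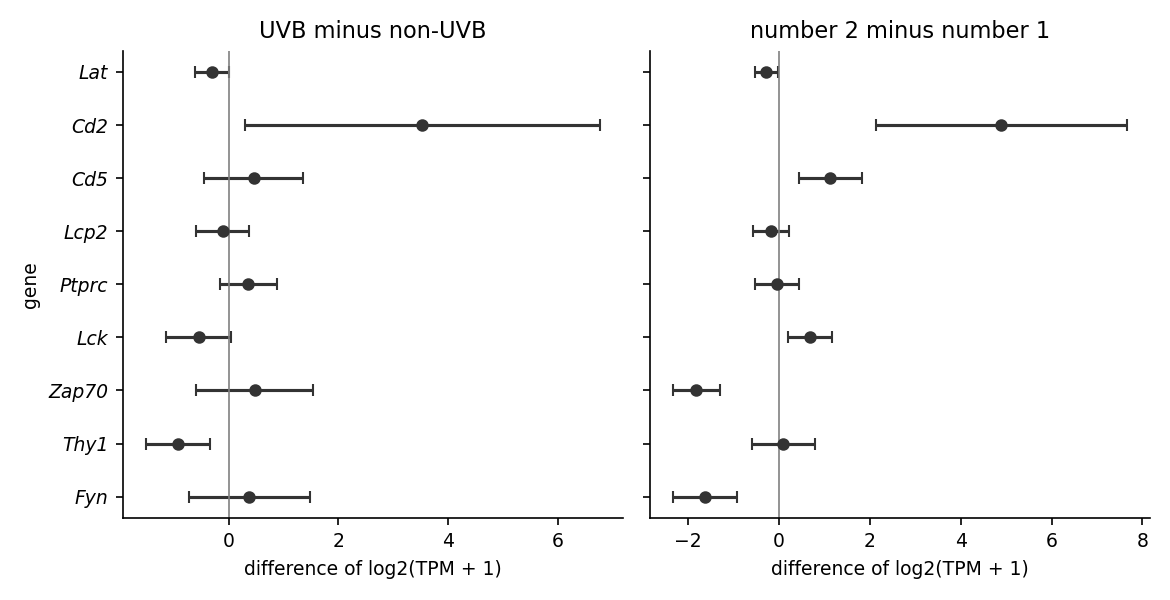
Difference of log2(TPM + 1) with its SE from limma for each gene, UVB minus non-UVB on the left and number 2 minus number 1 on the right (4 libraries, 2 a side). On the left Thy1 stands at -0.93 ± 0.58, and on the right Zap70 and Fyn lie below 0 at -1.82 ± 0.52 and -1.63 ± 0.70. The horizontal axes of the panels differ.

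The levels were then set against the receptor's own signalling chains. Cd3e, Cd3d, Cd3g and Cd247, which encode the CD3 epsilon, delta, gamma and zeta chains, summed to 4692 and 3843 TPM for number 1 (non-UVB, then UVB) and to 1764 and 1766 TPM for number 2. The 9 genes together summed to 1876 and 2189 TPM against 2988 and 2304 TPM. The CD3 sum was higher in number 1, with a difference of -1.27 log2 for number 2. The sum of the 9 genes was higher in number 2, and Cd2 alone carried that: the other 8 genes summed to 1874 and 1699 TPM in number 1 against 1725 and 1427 TPM in number 2, lower in number 2 within each group. Cd3g, the most abundant of the CD3 chains, had 2560 and 2701 TPM against 968 and 848 TPM (-1.54 ± 0.19 log2, limma adjusted p = 0.238), and Cd3e had 735 and 509 TPM against 255 and 189 TPM.

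Per unit of summed CD3 chains, 7 of the 9 genes were higher in both libraries numbered 2 than in both numbered 1, against 45.4% of all genes tested on the same scale. The lower divisor in number 2 raises every gene alike on this scale. Lat stood at 0.254 and 0.266 against 0.589 and 0.450, Lcp2 at 0.0302 and 0.0286 against 0.0593 and 0.0658, and Lck at 0.0190 and 0.0167 against 0.0865 and 0.0556. Fyn and Zap70 did not separate by number on this scale, with Zap70 at 0.0242 and 0.0399 against 0.0172 and 0.0249. The median difference of the 9 genes per CD3 was 1.22 log2 for number 2, below the 1.36 log2 of all genes tested, and with Cd3e alone as the divisor the medians were 1.43 and 1.58 log2. With that divisor the same 7 genes separated, against 47.0% of all genes. With UVB, 1 of the 9 genes separated, Zap70, which was higher per CD3 in both UVB libraries by 0.63 log2, against 21.0% of all genes, and with Cd3e as the divisor 2 of the 9 separated, Zap70 and Fyn, against 23.6%. The exact two-sided permutation p was 0.3333 at its smallest for these 18 comparisons, the limit of the design, so none could pass. The CD3 chains also belong to the gamma-delta receptor.

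**Figure D3:**
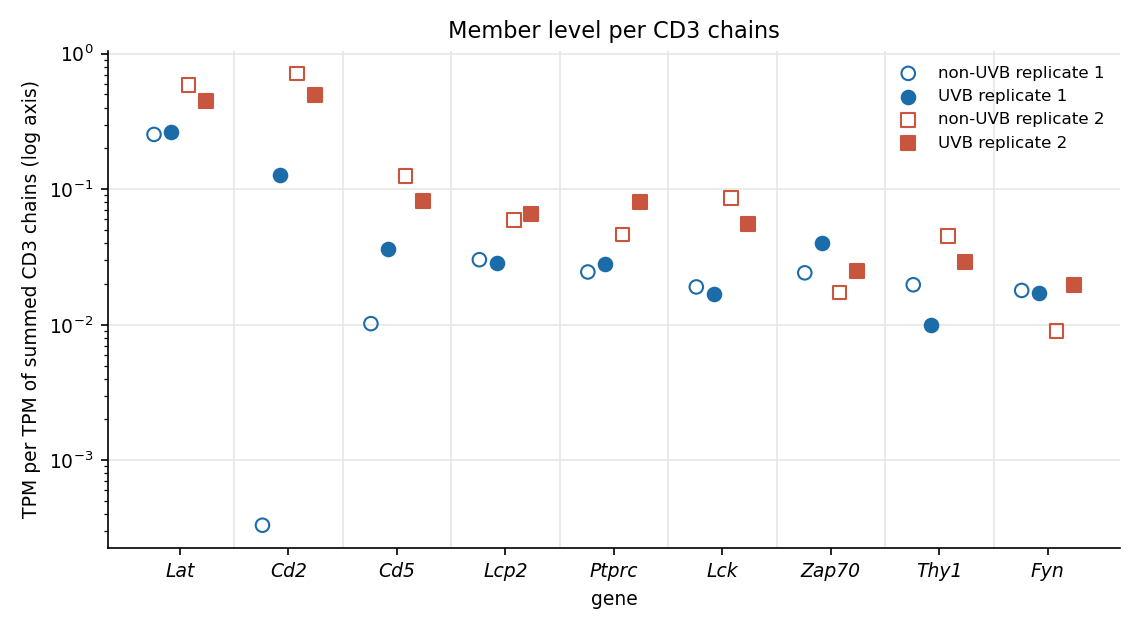
Level of each gene divided by the summed TPM of Cd3e, Cd3d, Cd3g and Cd247 in the same library (log axis), with symbols as in the plot of levels. Lat stands at 0.254 and 0.266 in the circles (number 1) and at 0.589 and 0.450 in the squares (number 2), and 7 of 9 genes have both squares above both circles, against 45.4% of all genes on this scale, whose divisor differs by -1.27 log2 in number 2.

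Around these 9 genes, 80 others of the pathway were set in 6 lists, and 67 of them were tested. With limma, 0 of the 67 had an adjusted p under 0.05 in either comparison. At an unadjusted p under 0.05 there were 5 by UVB and 17 by number, against 11.3% and 12.5% of all genes tested. By UVB 32 had a higher and 35 a lower mean, against 61.0% and 39.0% of all genes, with a median of -0.05 log2 beside 0.26. By number 25 were higher and 42 lower in number 2, against 53.4% and 46.6%, with a median of -0.42 log2 beside 0.10. Without overlap 10 were higher and 8 lower with UVB, against 23.2% and 9.71% of all genes. Likewise 13 were higher and 21 lower in number 2, against the 22.5% and 18.5% given above.

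Of the receptor complex, 10 of 12 genes were tested, 7 of them lower by mean with UVB. Trbc1 and Trbc2, the beta chain constant genes, whose near-identical sequences may share reads, are listed apart. Trbc1 had 1386 and 809 TPM in number 1 and 830 and 462 TPM in number 2, and Trbc2 had 1418 and 910 TPM, then 1405 and 1026 TPM, non-UVB before UVB. Both genes were lower in both UVB libraries (-0.81 ± 0.49 and -0.55 ± 0.28 log2). By number the alpha chain gene Trac and the coreceptor Cd4 were higher in both libraries numbered 2, Cd4 at 6.02 and 33.9 TPM against 138 and 71.6 TPM. Trdc and Trgc1, constant genes of the gamma-delta receptor, were lower in both (-4.42 ± 0.35 and -8.23 ± 0.46 log2, limma adjusted p = 0.238 and 0.224). Cd8a was listed at 0 throughout, and Cd8b1 was at 0.211 TPM in 1 library.

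Of the kinases and phosphatases beside the 9 genes, 9 of 11 were tested, with medians of 0.61 log2 by UVB and 0.08 log2 by number. The former was -0.36 with non-UVB replicate 2 left out and -0.29 after quantile normalization, and the latter was -0.98 where 5 TPM in 2 libraries was required. Ptpn6, which encodes the phosphatase SHP-1, had 210 and 395 TPM in number 1 against 18.9 and 60.8 TPM in number 2 (-3.04 ± 0.78 log2), and Ptpn7 differed by -2.04 ± 0.64 log2. Txk, a Tec-family kinase of T cells, was below 0.04 TPM in both libraries numbered 1 and at 7.95 and 20.4 TPM in number 2. Ptpn2, a phosphatase that acts on Lck and Fyn, had 36.0 and 1.12 TPM without UVB, against 222 and 161 TPM after UVB (4.42 ± 1.62 log2). Ptpn22, a further phosphatase of Lck and Zap70, had 78.7 and 157 TPM against 67.5 and 55.0 TPM. Csk, the kinase that inhibits Lck, had 59.7 and 34.2 TPM without UVB, against 14.6 and 47.7 TPM after UVB.

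Of the adaptors and effectors of the LAT and SLP-76 complex, 17 of 21 were tested, 7 higher and 10 lower by mean in both comparisons. The UVB median of -0.31 log2 was -0.92 after median scaling, 0.076 with UVB replicate 1 left out and 0.24 with UVB replicate 2 left out. Malt1, a paracaspase, differed by 1.32 ± 1.22 log2 with UVB, at -0.22 log2 in number 1 and 2.87 log2 in number 2. Sh2d2a, an adaptor that binds Lck, had 476 and 581 TPM without and 300 and 187 TPM with UVB (-1.15 ± 0.43 log2, limma adjusted p = 0.485), and Pik3cd differed by -1.29 ± 0.82 log2. By number, Nck2, an adaptor that ties Lcp2 to actin, was below 0.04 TPM in both libraries numbered 1 and at 55.9 and 27.9 TPM in number 2, and Pik3r1 was higher there as well (1.795 ± 0.89 log2). Grap2, the bridge between Lat and Lcp2, had 19.8 and 18.7 TPM in number 1 against 1.24 and 4.63 TPM in number 2, and Rhoh differed by -1.43 ± 0.78 log2. Themis was below 0.03 TPM throughout.

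Brakes and transmembrane adaptors had 14 of 17 genes tested and medians of -0.22 log2 by UVB and -0.05 log2 by number. The UVB median was 0.81 with UVB replicate 1 left out, 0.32 with non-UVB replicate 2 left out and 0.19 with UVB replicate 2 left out, and the number median became 0.76 with non-UVB replicate 2 left out and 0.20 after median scaling. Dok1, an adaptor that restrains receptor signals, had 0.0396 and 0.123 TPM without and 31.4 and 30.2 TPM with UVB, and Sit1, a transmembrane adaptor, had 0.137 and 4.41 TPM against 94.5 and 25.6 TPM. Dgka, which removes diacylglycerol, and Cblb, a ubiquitin ligase, differed by -1.42 ± 1.13 and -2.00 ± 1.67 log2 with UVB. Both were lower with UVB in number 1 (-3.05 and -4.78 log2) and higher in number 2 (0.21 and 0.77 log2). By number, Sh2d1a, which encodes SAP, an adaptor that brings Fyn to SLAM-family receptors, had 0.113 and 0.0164 TPM against 212 and 55.4 TPM, non-UVB first. The costimulatory receptor Cd28 had 21.8 and 14.6 TPM against 164 and 67.3 TPM. Sla and Lax1 were lower in both libraries numbered 2 (-1.03 ± 0.43 and -3.01 ± 1.54 log2).

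All 8 partners of CD2, CD5 and CD45 were tested. Cd48, the ligand of CD2, had 429 and 351 TPM in number 1 against 186 and 160 TPM in number 2 (-1.17 ± 0.31 log2), the direction opposite to that of Cd2, and Cd53, a tetraspanin of leukocytes, differed by -0.91 ± 0.22 log2. Cd2ap, an adaptor for the tail of CD2, had 6.69 and 0.0176 TPM against 41.9 and 15.3 TPM. With UVB, Cd244a, which also binds CD48, had 65.8 and 100 TPM where the non-UVB libraries had 0.0658 and 0.0896 TPM (6.26 ± 1.09 log2), and the tetraspanin Cd81 differed by 0.85 ± 0.41 log2. Cd2bp2 and Pstpip1, which bind the tail of CD2, differed by -2.08 ± 1.24 and -2.17 ± 1.53 log2. Their UVB differences were -0.09 and 0.29 log2 in number 1, and -4.08 and -4.64 log2 in number 2.

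Counterparts of the 9 genes that serve receptors of myeloid and B cells had 9 of 11 members tested, 7 higher by mean with UVB and 9 of 9 lower by mean in number 2. The UVB median of 0.62 log2 was 0.015 after median scaling. With 1 library left out it was 2.78 (non-UVB replicate 1), -1.05 (non-UVB replicate 2), -0.14 (UVB replicate 1) or 1.39 (UVB replicate 2). Blk, a Src-family kinase also found in gamma-delta T cells, had 254 and 254 TPM in number 1 against 0.649 and 0.545 TPM in number 2, and Lyn had 24.3 and 117 TPM against 0.240 and 0.265 TPM. Syk, the relative of Zap70, had 39.7 and 23.8 TPM without UVB, against 18.4 and 1.67 TPM after UVB. Plcg2 was at 0 without UVB in both numbers and at 12.1 and 2.77 TPM with UVB. Tyrobp, an adaptor with a receptor activation motif, differed by 0.90 ± 0.42 log2 with UVB. These values stood beside the macrophage and dendritic cell sums above, which were higher with UVB within each number, and the part of those cells was not tested. Btk was listed at 0 in all 4 libraries.

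**Figure D4:**
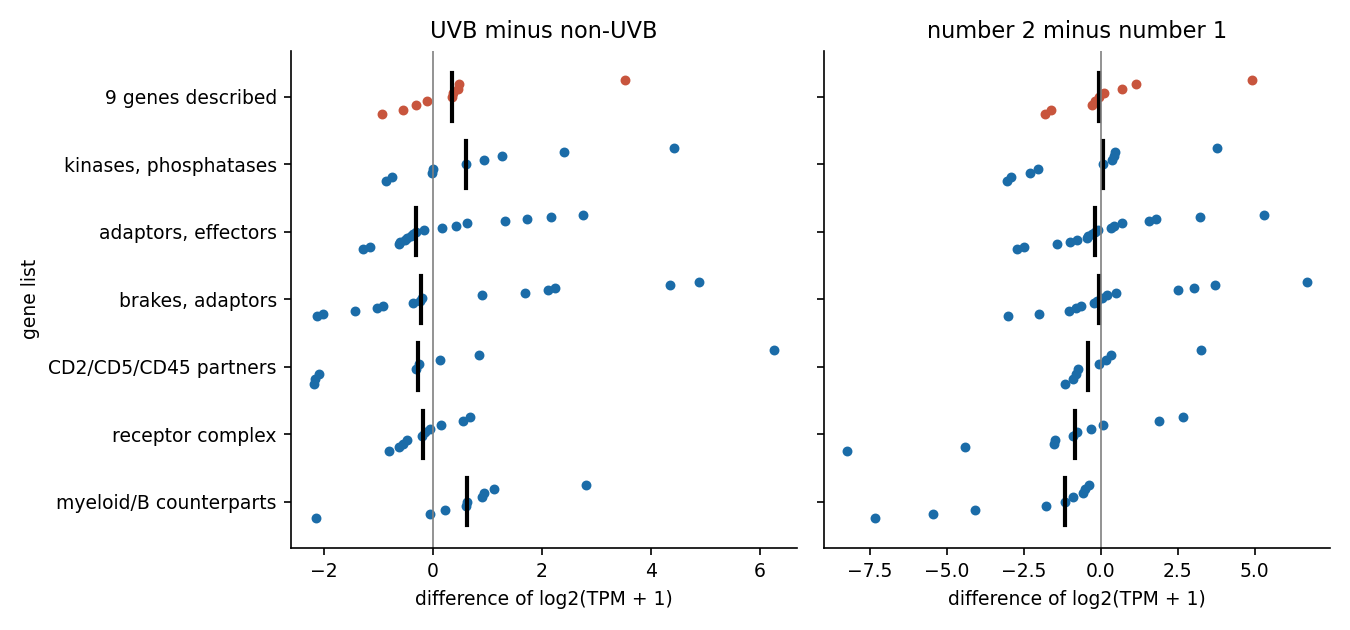
Difference of log2(TPM + 1) for each tested gene of the 9 described (red) and of the 6 pathway lists (blue), UVB minus non-UVB on the left and number 2 minus number 1 on the right, with a black bar at each median and different horizontal axes. The medians on the left run from -0.31 (adaptors, effectors) to 0.62 (myeloid and B cell counterparts), both of which turn sign with 1 library left out, and on the right from -1.17 (counterparts) to 0.08 (kinases, phosphatases).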

How the data were processed

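RNA of 4 libraries was read as single-end reads of 100 bp after an ultra-low-input library kit, per the labels' protocols. HISAT2, StringTie and DESeq2 with GRCm38 (mm10) are named in the submitters' processing notes, with no version or role given. Neither strandedness nor the annotation version is known from the sources used. The authors deposited 1 gene table per library with coverage (mean read depth per base, not scaled to depth), FPKM and TPM. How coverage was averaged over transcripts is likewise unstated there. The bases behind each library were taken as the highest ratio of coverage to FPKM. No counting interval is given, since read numbers per gene were not recovered.

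Rows of 1 gene ID were summed, and genes at 1 TPM or more in at least 2 libraries were kept (10286). The test was limma (version 3.58.1, R 4.3.3, intensity trend) on log2(TPM + 1), once with group and once with number as the only term. Adjustment was by Benjamini-Hochberg over all genes tested, with a threshold of 0.05. For genes of low level this log scale makes differences look smaller than they are. The test was also run on simulated data, and no result given here rests on that run. Ratios were tested by exact permutation over libraries. Overlapping genes were looked up in GENCODE M21.

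The 9 genes, the lists and the tests were chosen with earlier results of these data known. Named beyond the 9 were, by rule, the CD3 chains, up to 2 genes per direction of each pathway list with the smallest unadjusted p in each comparison, the 3 genes closest to the gene of widest range, and the 2 most abundant of each cell type list. A few of the genes chosen in this way are not reported here. Foxp3, Icos, Il2ra, Cd8a, Cd8b1, Themis and Btk were named after their values were seen. The alternatives changed the pseudocount, filter, unit, scaling, genes behind the TPM total, spread model and terms, and left out each library.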

Additional observations from a re-analysis of the deposited data

How the results depend on the processing

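Each of the 9 differences was recomputed under 13 alternatives in each comparison, 234 values in all, of which 18 changed sign and 0 passed the threshold. Differences of Lck, Lat and Thy1 with UVB, and of Lck, Zap70, Lat, Cd2, Cd5 and Fyn by number, kept their sign in all 13. For those that separated, most alternatives could not turn the sign, as given above. By UVB, median scaling gave -0.13 for Zap70, -0.15 for Cd5, -0.25 for Ptprc and -0.23 for Fyn (log2). With 1 library left out, the UVB difference of Cd2 ran from -0.95 to 8.005, that of Cd5 from -0.64 to 1.55, that of Zap70 from -0.46 to 1.41 and that of Fyn from -0.79 to 1.55. Lcp2 turned to 0.11 in the absence of non-UVB replicate 1, and leaving out UVB replicate 1 gave -0.41 for Zap70 and -0.08 for Fyn. By number, Ptprc was at 0.032 with FPKM, at 0.20 after median scaling and between -0.45 and 0.35 with 1 library left out. Lcp2 was at 0.074 after median scaling and 0.0059 once non-UVB replicate 1 was left out, and Thy1 ran from -0.53 to 0.71, with -0.22 where non-UVB replicate 2 was left out. The median UVB difference of the 9 was 0.11 after quantile normalization, -0.25 after median scaling and between -0.32 and 0.16 with 1 library left out. The median number difference was 0.20 after median scaling and between -0.36 and 0.0059 with 1 library left out. Quantile normalization gave 13 genes with an adjusted p under 0.05 by number, none of them among the 9, and 0 by UVB. Without non-UVB replicate 1, 850 genes had an unadjusted p under 0.05 by number against 1290. Of 156 medians of the pathway lists 22 moved by more than the spread between libraries, as did 2 of 18 values per CD3 with Cd3e as the divisor (FPKM gives the same ratios as TPM). The cause was not tested. When 1 library was left out the genes tested were kept and a group left with 1 library took its spread from the other.

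With 2 pairs the labels' numbers are no evidence of pairing. Deviations of same-numbered libraries from their group means had a correlation of 0.17 across genes. With the replicate number as a block the median UVB difference was 0.36, 0 genes passed the adjusted threshold and 1110 had an unadjusted p under 0.05 against 1167.

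With 2 libraries a group, the median SE of a difference was 1.12 log2 over all genes and 0.60 log2 over the 9 by UVB. Of the 9, all but Cd2 and Thy1 had a UVB difference within its own SE. Fyn was covered at 1.51 and 3.11 reads per base in the libraries numbered 2, by the deposited coverage.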
